A study of Mus musculus with 8 samples.

Results

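The genes of the mitochondrial protein import machinery were followed in RNA-seq counts of lung endothelial cells whose mitochondrial complex III had been targeted. The members were all protein-coding genes named Tomm or Timm followed by a number, with Pam16, Dnajc15, Dnajc19, Grpel1 and Grpel2, which gave 30 genes of the 43430 in the count table. One further symbol that matched, Tomm6os, is an antisense gene and was left out. The samples were 4 wild-type (WT) and 4 knockout (KO) libraries from mice on a C57BL/6 background at postnatal day 15. In the KO mice QPC, a complex III subunit whose gene was taken to be Uqcrq, was deleted in the endothelium. The protocol lists tamoxifen from day 0 to day 4 after birth for all 8 samples, and CD31-positive cells were sorted from the lungs. The sources used here do not give the driver of the deletion, the deleted exons or the animals behind each library. A p-value therefore reflects how far these libraries differ, and some of that spread may be technical.

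Nearly all mitochondrial proteins are made in the cytosol and enter through the TOM complex of the outer membrane. Precursors with a cleavable presequence then pass the TIM23 complex of the inner membrane and are pulled into the matrix by a motor built around the mitochondrial Hsp70. Carrier proteins are instead escorted across the intermembrane space by small TIM chaperones and inserted into the inner membrane by TIM22. Import through TIM23 and TIM22 needs the membrane potential that the respiratory chain, complex III included, maintains.

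Library totals ran from 6407924 counts in WT replicate 3 to 13981329 in KO replicate 4. Uqcrq averaged 27.3 CPM (counts scaled to library size, TMM-normalised; SD 3.01, n = 4) over WT and 10.2 CPM (SD 6.26, n = 4) over KO. The KO libraries ran from 1.59 CPM in replicate 1 to 15.6 CPM in replicate 2, all below every WT library. Uqcrq itself missed the threshold, with a log2 fold change of -1.42 (SE 0.53, edgeR adjusted p = 0.179). The 6 endothelial markers summed to between 11237 and 13358 CPM in WT and between 9241 and 12665 CPM in KO, with none at 0. Of these 6, Tek (log2 fold change -0.69, SE 0.13, edgeR adjusted p = 0.00762) and Erg (-0.67, SE 0.16, edgeR adjusted p = 0.0231) were lower in KO, and none of the markers of other cell types was called. The 5 alveolar type 2 epithelial markers also gave a large signal, from 3376 to 19899 CPM in WT and from 3290 to 14395 CPM in KO. The 5 leukocyte markers ranged from 415 to 2003 CPM in WT and from 395 to 1481 CPM in KO. These ranges overlapped between the groups. When the summed alveolar type 2 markers were a covariate, 0 members were called, against 2.77% of all genes higher and 1.95% lower. In that fit Timm9, Timm17a and Grpel1 had log2 fold changes of 4.00, 0.49 and 0.51. That of Timm23 was 0.16 against 0.34 without the covariate. The part of the other cell types in the members' values was not tested. In bulk libraries fewer cells of a type and less RNA per cell cannot be told apart.

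No import gene changed past the threshold between KO and WT. Of the 30 members 27 had enough counts to be tested, and 0 were called higher and 0 lower (quasi-likelihood test of edgeR, Benjamini-Hochberg adjusted over 12689 genes, threshold 0.05). Over all genes tested 2.25% were called higher and 1.39% lower. DESeq2 and limma voom also called 0 members. Over all genes DESeq2 called 2.61% higher and 2.29% lower, and limma voom 2.4% and 1.51%. At an unadjusted edgeR p under 0.05 there were 3 members, all higher in KO: Timm9, Timm17a and Grpel1. That is 11.1% of the members tested, against 8.69% of all genes that were higher and 6.53% that were lower at that level. The same 3 members were those whose 4 KO libraries all lay above all 4 WT libraries, against 6.94% of all genes tested. No member had all KO libraries below all WT libraries, as 4.67% of all genes did.

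The fitted changes of the members lay mostly above 0. Of the 27 tested, 21 had a positive log2 fold change, 77.8% against 51% of all genes tested, and the members' median was 0.24 against 0.013. By part the median was 0.14 over the 7 outer membrane members tested, 0.46 over the 6 small TIM chaperones tested and 0.34 over the 13 inner membrane members. When the dependence on exon length and GC content was removed from every library, 14 of the 27 were positive, 51.9% against 42.7% of all genes, and the members' median was 0.067 against -0.097 for all genes. On that scale the outer, small TIM and inner medians were -0.17, 0.16 and 0.28. With the trend removed 0.586% of all genes were called higher and 0.919% lower, again with 0 members among them.

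**Figure D1:**
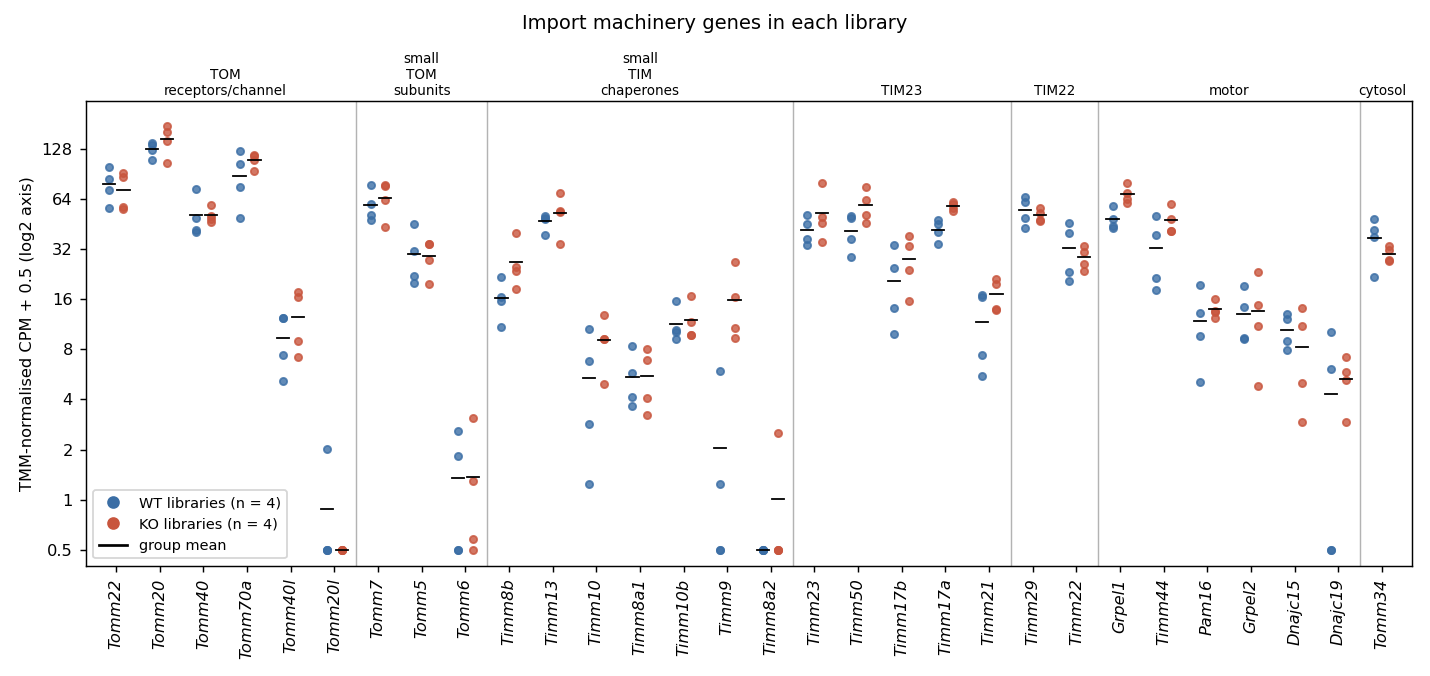
TMM-normalised CPM plus 0.5 of each of the 30 members on a log2 axis, grouped by the part of the machinery it belongs to. Points are the 4 WT and 4 KO libraries, black lines are group means, and the groups separate for Timm9, Timm17a and Grpel1 only.

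No outer membrane member passed the threshold. Among the receptors, Tomm20, which reads presequences, stood at 109, 126, 135 and 138 CPM in WT replicates 1 to 4 and at 106, 176, 143 and 162 CPM in KO replicates 1 to 4. KO replicate 1 was the lowest of the 8 libraries while the other 3 KO libraries were the highest. The log2 fold change was 0.21 (SE 0.18, edgeR adjusted p = 0.718). Tomm22, the receptor that also organises the complex, gave 84.5, 56.4, 99.0 and 72.7 CPM in WT and 55.7, 86.9, 91.5 and 57.1 CPM in KO. The groups covered nearly the same range, with a log2 fold change of -0.10 (SE 0.24, edgeR adjusted p = 0.929). Tomm70a encodes the receptor that takes carrier precursors from cytosolic chaperones. It had 75.3, 125, 48.7 and 104 CPM in WT and 115, 110, 118 and 94.6 CPM in KO. The WT libraries spread more widely and enclosed all 4 KO libraries, and the log2 fold change was 0.31 (SE 0.24, edgeR adjusted p = 0.669).

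Tomm40, the beta-barrel channel through which precursors cross the outer membrane, was at 41.2, 48.7, 73.4 and 40.2 CPM in WT and at 46.5, 50.3, 58.5 and 48.3 CPM in KO. Both groups had a mean of 50.9 CPM, with WT replicate 3 above all others, and the 95% interval of the log2 fold change ran from -0.52 to 0.53. Its paralogue Tomm40l gave 6.86, 11.9, 11.8 and 4.69 CPM in WT and 8.43, 6.73, 17.2 and 15.9 CPM in KO. The groups overlapped at this lower level (log2 fold change 0.45, SE 0.62, edgeR adjusted p = 0.861). Of the exon bases of Tomm40l 3304 of 5135 are shared with Nr1i3 on the opposite strand, which held 34 counts in WT replicate 1 and 0 in the other libraries. Per kilobase of exon, Tomm40 had 11.3 CPM and Tomm40l 2.03 CPM on average over the 8 libraries.

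The small TOM subunits, which help to assemble and stabilise the complex, included the member with the highest level per length, Tomm7, at 54.9 CPM per kilobase of exon. Tomm7 stood at 77.1, 47.7, 59.2 and 50.8 CPM in WT and at 43.0, 76.5, 62.5 and 77.3 CPM in KO. The lowest and the highest library were both KO, and the log2 fold change was 0.14 (SE 0.24, edgeR adjusted p = 0.896). Tomm5 ranged from 19.5 to 45.0 CPM in WT and from 19.3 to 33.9 CPM in KO. Tomm6 had only 86 counts over the 8 libraries and 0 counts in 3 of them, and was not tested. Of its 1131 exon bases 859 are shared with Gm21981, an annotated gene on the same strand, so that its level here is uncertain. Tomm20l, a relative of Tomm20, had 18 counts in WT replicate 1 and 0 in the other 7 libraries, and was not tested either.

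Of the small TIM chaperones, ring-shaped carriers of hydrophobic precursors in the intermembrane space, Timm9 showed the largest fitted change of the 27 members. Timm9 encodes the partner of the Timm10 product in the ring that serves carrier proteins. It stood at 0, 5.43, 0 and 0.741 CPM in WT replicates 1 to 4 and at 26.5, 10.3, 16.1 and 8.83 CPM in KO replicates 1 to 4. All 4 KO libraries lay above all 4 WT libraries, and 2 WT libraries held 0 counts, which allows up to 0.251 CPM in WT replicate 1 and 0.448 CPM in WT replicate 3 (3 counts, counting error only). WT averaged 1.54 ± 2.62 CPM and KO 15.5 ± 8.01 CPM (SD, n = 4 each). The log2 fold change of 3.30 (SE 1.28, 95% interval 0.58 to 6.02) did not pass after adjustment (edgeR adjusted p = 0.206). The fitted value was 5.81 without WT replicate 2, 2.88 to 3.49 without any other single library, and 5.23 with limma voom. Its biological coefficient of variation, the fitted spread between replicates, was 111%, where the median over all genes was 38%. Over the 21 other settings its adjusted p ran from 0.0176 to 0.397. It was called without WT replicate 2 (edgeR adjusted p = 0.0307) and with the newer dispersion option of edgeR (adjusted p = 0.0176), and in none of the other 19. Over all genes, 1.66% were called higher and 0.844% lower without that library, and 3.55% and 2.34% with that option. The fit with the replicate number as a block called 0 members, against 1.69% of all genes higher and 0.969% lower.

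Timm10, the partner, ranged from 0.741 to 10.1 CPM in WT and from 4.46 to 12.5 CPM in KO, with a log2 fold change of 0.82 (SE 0.96, edgeR adjusted p = 0.826). Timm8b had the highest level of the small TIM genes per length, at 40.5 CPM per kilobase. It gave 16.1, 15.2, 10.5 and 21.3 CPM in WT and 23.1, 24.6, 17.9 and 39.4 CPM in KO. KO replicate 3 lay below WT replicate 4 and the other 3 KO libraries above every WT library (log2 fold change 0.73, SE 0.38, edgeR adjusted p = 0.395). Its paralogue Timm8a1, the mouse counterpart of the gene mutated in human deafness-dystonia syndrome, had 5.27, 3.62, 3.14 and 7.90 CPM in WT and 2.72, 3.60, 7.52 and 6.44 CPM in KO. The groups overlapped, with a KO library the lowest and a WT library the highest. The interval of the Timm8a1 log2 fold change, from -2.23 to 2.28, does not limit the change to less than 4-fold either way. Timm13, which pairs with the Timm8 proteins, ranged from 38.6 to 50.4 CPM in WT and from 34.1 to 69.4 CPM in KO, and Timm10b from 8.73 to 15.1 CPM in WT and from 9.27 to 16.3 CPM in KO. Timm8a2 had 28 counts, all in KO replicate 4, and was not tested.

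In the inner membrane, all 5 TIM23 members had a positive log2 fold change, from 0.34 to 0.58, and none passed the threshold. Timm23, which forms the channel region with the Timm17 proteins, was at 36.3, 45.0, 50.8 and 33.5 CPM in WT and at 79.8, 45.6, 35.1 and 49.5 CPM in KO. KO replicate 1 stood above all others and the remaining KO libraries lay within the WT range (log2 fold change 0.34, SE 0.28, edgeR adjusted p = 0.687). An annotated protein-coding copy, Gm10273, matches 1121 bases of the Timm23 transcript at 99.9% identity and was at 0 counts in all libraries, and how reads matching both were counted is not stated. Timm17a gave 44.9, 40.4, 33.9 and 47.3 CPM in WT and 56.0, 61.1, 53.8 and 59.4 CPM in KO. All KO libraries were above all WT libraries, with means of 41.6 ± 5.87 and 57.6 ± 3.30 CPM (SD, n = 4 each). Its log2 fold change was 0.47 (SE 0.22, edgeR adjusted p = 0.327), and the adjusted p ranged from 0.221 to 0.559 over the other settings.

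Timm17b, the X-linked paralogue of Timm17a, stood at 24.2, 9.40, 13.8 and 33.6 CPM in WT and at 32.9, 23.6, 15.1 and 37.8 CPM in KO. The groups overlapped, with a log2 fold change of 0.43 (SE 0.43, edgeR adjusted p = 0.769). Timm50, the receptor of TIM23 on the intermembrane side, ranged from 28.3 to 50.5 CPM in WT and from 45.7 to 75.9 CPM in KO (log2 fold change 0.52, SE 0.26, edgeR adjusted p = 0.367). Timm21, which links TIM23 to TOM and to the respiratory chain, ranged from 5.02 to 16.6 CPM in WT and from 13.4 to 20.7 CPM in KO (log2 fold change 0.58, SE 0.51, edgeR adjusted p = 0.731).

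Both TIM22 members had a negative log2 fold change that did not pass. Timm22, the carrier channel, was at 39.5, 20.1, 45.7 and 23.0 CPM in WT and at 30.5, 25.4, 23.3 and 33.2 CPM in KO. The KO libraries lay inside the WT range (log2 fold change -0.19, SE 0.32, edgeR adjusted p = 0.90). Timm29, a subunit of TIM22 in animals, gave 66.0, 48.8, 42.3 and 61.2 CPM in WT and 56.5, 47.2, 47.6 and 52.6 CPM in KO. These too lay within the WT range (log2 fold change -0.10, SE 0.23, edgeR adjusted p = 0.926).

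Of the motor genes Grpel1 was the one with separated groups. It encodes the nucleotide exchange factor that resets the mitochondrial Hsp70 after each pull. It stood at 48.0, 42.7, 43.5 and 58.2 CPM in WT and at 80.0, 69.4, 60.6 and 64.1 CPM in KO. The lowest KO library, replicate 3, lay just above the highest WT library, replicate 4. WT averaged 48.1 ± 7.13 CPM and KO 68.5 ± 8.46 CPM (SD, n = 4 each). The log2 fold change was 0.51 (SE 0.21, edgeR adjusted p = 0.252). Of its 3528 exon bases 411 are shared with Tada2b on the opposite strand, which had 145 to 423 counts in WT and 107 to 384 in KO. After the length and GC trend was removed, Grpel1 had a log2 fold change of 0.36 (edgeR adjusted p = 0.655).

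Its paralogue Grpel2 gave 18.8, 8.71, 8.82 and 13.9 CPM in WT and 4.31, 23.0, 14.3 and 10.5 CPM in KO. KO replicates 1 and 2 were the lowest and the highest of all 8 libraries, and the log2 fold change was 0.052 (SE 0.57, edgeR adjusted p = 0.989). Dnajc19 and Dnajc15 encode J-proteins that stimulate the Hsp70 at the channel. Dnajc19 was at 5.60, 0, 0 and 9.71 CPM in WT and at 2.44, 6.73, 5.38 and 4.71 CPM in KO. The WT libraries were thus both the lowest and the highest, and the interval of the log2 fold change, from -3.02 to 3.67, is too wide to tell a direction. Dnajc15 had 8.45, 7.42, 11.7 and 12.5 CPM in WT and 2.44, 4.54, 10.5 and 13.6 CPM in KO, with 2 KO libraries below every WT library and 1 above (log2 fold change -0.36, SE 0.73, edgeR adjusted p = 0.915). Timm44, which tethers the Hsp70 to TIM23, ranged from 17.7 to 50.5 CPM in WT and from 40.7 to 59.3 CPM in KO (log2 fold change 0.57, SE 0.33, edgeR adjusted p = 0.477). Pam16, the J-like regulator of the motor, ranged from 4.61 to 19.1 CPM in WT and from 11.9 to 15.5 CPM in KO. Of its 2435 exon bases 455 are shared with Glis2 on the opposite strand, which had 830 to 1779 counts. An annotated protein-coding copy, Gm9803, matches 534 bases of the Pam16 transcript at 100% identity and was at 0 counts in all libraries. How reads matching both were counted is not stated.

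Tomm34 is named with the TOM genes but encodes a cytosolic co-chaperone of Hsp70 and Hsp90. It stood at 21.3, 48.3, 37.5 and 41.4 CPM in WT and at 31.2, 33.0, 26.7 and 27.1 CPM in KO. The KO libraries lay within the WT range, and WT replicate 1 was the lowest of all (log2 fold change -0.33, SE 0.30, edgeR adjusted p = 0.733).

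The precision of these values differed by part. The 95% interval of the log2 fold change lay within a 2-fold change either way for 13 of the 27 members. These were 6 of the 7 outer membrane members tested, Tomm40l being the exception, both TIM22 members, Timm23, Timm17a, Grpel1, Timm13 and Tomm34. For the other 14 the interval reaches a 2-fold change, so a change of that size is not excluded by these libraries. The median coefficient of variation was 26.1% over the outer membrane members, 34.6% over the inner membrane members and 72.1% over the small TIM chaperones.

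**Figure D2:**
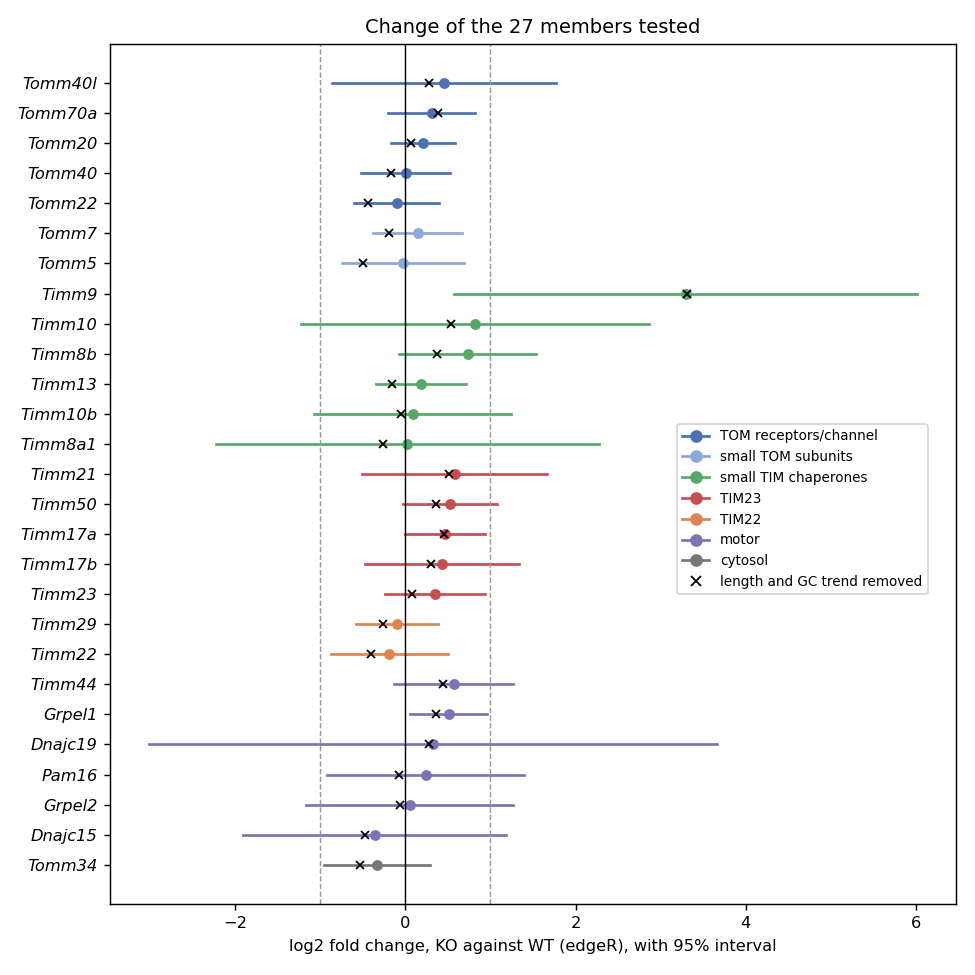
Fitted log2 fold change of KO against WT for the 27 members tested, with its 95% interval, coloured by part. Crosses give the value with the length and GC trend removed and dashed lines mark 2-fold, and 24 of the 27 intervals include 0, the exceptions being Timm9, Timm17a and Grpel1.

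Outer and inner membrane parts were compared within each library by summing the members' CPM. The TOM genes summed to 419.6, 435, 472 and 443 CPM in WT replicates 1 to 4 and to 394, 542, 525 and 483 CPM in KO replicates 1 to 4, so the groups overlapped. The inner membrane genes (TIM23, TIM22 and motor) summed to 389, 315, 334 and 402 CPM in WT and to 476, 429, 395 and 487 CPM in KO, and only KO replicate 3 lay below the highest WT library. The log2 ratio of outer to inner averaged 0.30 ± 0.21 over WT and 0.12 ± 0.32 over KO (SD, n = 4 each). The difference of -0.19 was smaller than the pooled SD of 0.27 between replicates, and the groups overlapped. When each member counted equally, tested or not, as the mean of log2 of CPM plus 0.5, the difference was -0.29. It exceeded the pooled SD of 0.20, with the groups still overlapping. That mean gives full weight to members near 0. Dnajc19 had 0 CPM in WT replicates 2 and 3, and Tomm20l 0 CPM in every library but WT replicate 1. The share of such members in the difference was not tested. The ratio of sums does not depend on library scaling, and as a score over chosen members it is given with no test.

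**Figure D3:**
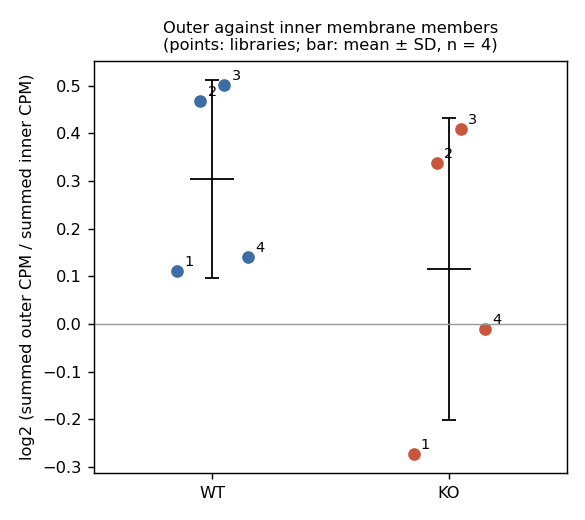
Log2 ratio of summed outer membrane CPM to summed inner membrane CPM in each library, numbered by replicate, with the mean and SD of each group. WT libraries run from 0.11 to 0.50 and KO libraries from -0.27 to 0.41, so the groups overlap.

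Within the inner membrane the ratio of KO to WT sums was 1.37 for TIM23, 1.31 for the motor and 0.913 for TIM22, and the difference between these ratios was not tested. TIM23 genes summed to 172, 140, 142 and 168 CPM in WT and to 239, 197, 181 and 236 CPM in KO, with every KO library above every WT library. Motor genes summed to between 104 and 149 CPM in WT and between 144 and 165 CPM in KO, overlapping through WT replicate 4. TIM22 genes summed to 86.7 ± 15.0 CPM over WT and 79.1 ± 8.51 CPM over KO (SD, n = 4 each). The small TIM genes summed to 85.2, 85.1, 78.3 and 89.8 CPM in WT and to 115, 108, 114 and 144 CPM in KO, again without overlap. Without Timm9 that gap closed, with WT at 78.3 to 89.1 CPM and KO at 88.7 to 135 CPM.

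All 30 members together summed to 924 ± 38.3 CPM over WT and 1083 ± 55.3 CPM over KO (SD, n = 4 each), a ratio of 1.17, with no overlap between the groups (highest WT 976, lowest KO 1017 CPM). Without Timm9 they ranged from 878 to 975 CPM in WT and from 990 to 1133 CPM in KO. On the scale with the length and GC trend removed these sums no longer separated. The sum over all members then averaged 992 ± 150 CPM over WT and 1026 ± 122 CPM over KO, that of TIM23 165 ± 15.5 and 206 ± 56.6 CPM, and that of the small TIM genes 94.6 ± 16.3 and 110 ± 24.7 CPM (SD, n = 4 each).

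**Figure D4:**
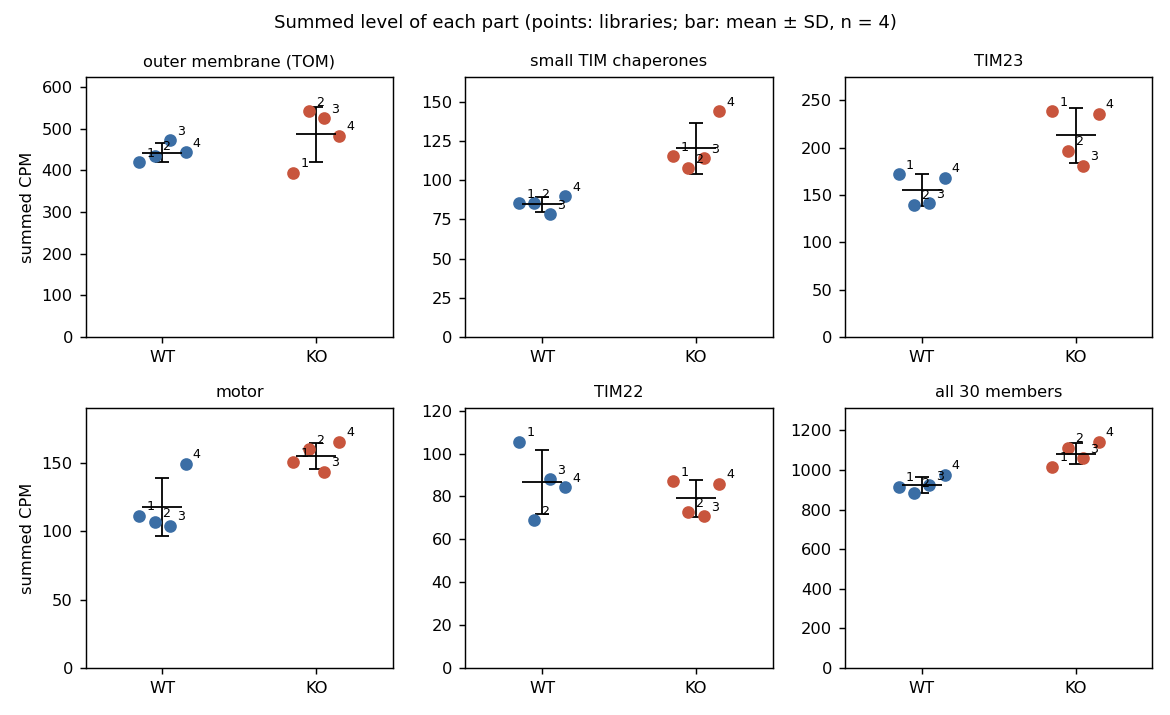
Summed TMM-normalised CPM of the outer membrane, small TIM, TIM23, motor and TIM22 genes and of all 30 members, on axes that start at 0. Points are libraries numbered by replicate and bars give the mean and SD; the small TIM genes, TIM23 and the sum of all members separate WT from KO, the others overlap.

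The promoters of the 3 members with separated groups are shown because these were the members whose KO libraries all lay above all WT libraries. They are RefSeq windows in GRCm38.p6 of 250 bases before to 50 bases after the annotated start, at chr12:71136626-71136925 on the minus strand for Timm9, chr1:135313688-135313987 on the minus strand for Timm17a and chr5:36464935-36465234 on the plus strand for Grpel1. Capitals mark matches to 3 motifs searched on both strands: the E-box CACGTG, the core of the amino acid response element TGATGNAA and the NRF1 motif. All 3 sequences are written 5′ to 3′ on the strand of the gene.
Timm9: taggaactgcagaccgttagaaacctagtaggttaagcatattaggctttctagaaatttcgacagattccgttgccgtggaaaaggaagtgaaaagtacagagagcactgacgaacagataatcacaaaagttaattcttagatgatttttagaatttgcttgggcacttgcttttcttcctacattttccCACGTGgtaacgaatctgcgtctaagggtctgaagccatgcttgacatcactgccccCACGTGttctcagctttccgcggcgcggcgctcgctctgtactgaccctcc
Timm17a: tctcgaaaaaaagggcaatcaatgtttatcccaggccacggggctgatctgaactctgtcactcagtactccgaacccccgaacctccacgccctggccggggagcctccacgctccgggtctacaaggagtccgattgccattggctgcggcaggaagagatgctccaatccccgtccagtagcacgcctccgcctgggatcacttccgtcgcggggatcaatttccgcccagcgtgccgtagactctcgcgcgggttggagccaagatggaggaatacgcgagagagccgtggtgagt
Grpel1: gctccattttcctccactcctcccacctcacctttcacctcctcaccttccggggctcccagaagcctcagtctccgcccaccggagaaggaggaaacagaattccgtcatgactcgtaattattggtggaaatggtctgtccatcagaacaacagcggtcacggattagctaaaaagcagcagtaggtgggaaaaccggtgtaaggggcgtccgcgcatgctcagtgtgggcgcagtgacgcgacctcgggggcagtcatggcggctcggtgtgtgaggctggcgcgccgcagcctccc
The Timm9 window holds 2 E-boxes, starting at bases 193 and 250 of the 300, the second across the annotated start. At least 1 E-box stands in 7.15% of all 32851 promoter windows and 2 or more in 0.594%. Among the 28 windows of the 26 members with a RefSeq window, an E-box stands in 5, those of Timm8a1, Timm9, Timm10, Tomm20 and Tomm20l. The NRF1 motif stands in 3 member windows, of Pam16, Timm8b and Tomm20, and in 4.60% of all windows. The amino acid response element core stands in 0 member windows and in 3.97% of all windows. A match describes letters in the window and is not a measured binding site.

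The other genes of the pathway were read from the same test. Of 25 genes that serve import outside the members (partner chaperones, processing peptidases, the sorting and assembly machinery and insertases) 3 were called higher in KO and 0 lower, against 2.25% and 1.39% of all genes tested. The list was drawn up with earlier results of these data known, so these counts do not test the pathway. The median log2 fold change was 0.16 over the 25, against 0.013 over all genes tested. With the length and GC trend removed these medians were 0.17 and -0.097. Hspa9, the mitochondrial Hsp70 around which the motor is built, stood at 120, 105, 120 and 90.8 CPM in WT and at 260.5, 255, 258 and 249 CPM in KO. It rose by 1.23 on the log2 scale (SE 0.15, edgeR adjusted p = 0.000228), and none of its motor partners among the members passed. Hsp90aa1 and Hsp90ab1, cytosolic chaperones that hand precursors to the Tomm70 receptor, rose by 0.92 (SE 0.15, edgeR adjusted p = 0.00239) and 0.47 (SE 0.11, edgeR adjusted p = 0.0189). With the length and GC trend removed Hspa9 (0.00968) and Hsp90aa1 (0.0471) kept an edgeR adjusted p under 0.05, while Hsp90ab1 had 0.679.

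Gfer, the oxidase of the intermembrane space relay, had all KO libraries above all WT libraries (15.4 to 24.8 against 7.62 to 13.8 CPM) but did not pass (log2 fold change 0.83, SE 0.42, edgeR adjusted p = 0.377). Its relay partner Chchd4, which folds the small TIM proteins after they enter, averaged 16.5 ± 9.12 CPM over WT and 15.7 ± 5.99 CPM over KO (SD, n = 4 each). The genes of the sorting and assembly machinery, which places Tomm40 in the outer membrane, did not pass: Samm50 was at 75.7 ± 15.6 CPM in WT and 99.5 ± 12.0 CPM in KO (edgeR adjusted p = 0.364). The subunits of the presequence peptidase, Pmpca and Pmpcb, had log2 fold changes of 0.35 and 0.16 and did not pass either.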

How the data were processed

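Raw gene counts, whole numbers with 1 column per library, were deposited by the authors for 4 WT and 4 KO libraries. The tools named are bcl2fastq, TopHat, HTSeq and edgeR, with build mm10, per the submitters' processing notes. Versions, annotation release and strand setting were not stated there, so reads of overlapping or antisense genes cannot be told apart. Exon bases are shared with another annotated gene in 15 of the 30 members, with Timm9, Timm10b, Dnajc19 and Pam16 among them. A stretch of another gene aligns to 11 members. Symbols and exon lengths came from GENCODE M21 (GRCm38, the build called mm10), which named 42546 of the 43430 gene IDs. 0 value columns lacked a sample label. Exon length is the union over all annotated transcripts, so levels per kilobase are approximate.

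Counts were TMM-normalised, filtered with filterByExpr (minimum count 10, minimum total 15) and tested across 12689 genes with edgeR 4.0.16 in R 4.3.3 (quasi-likelihood F test, robust, genotype only, Benjamini-Hochberg adjustment at 0.05). SE and 95% intervals derive from the F statistic. The fit was also run on simulated counts with known changes, and the share of changes it recovered is not given here. No library repeated another of its group, where the chi-square of the counts per degree of freedom was 35.3 to 80.5. It was not computed between WT and KO libraries. Counting floors of 3 counts cover counting error only, as reads carry no molecular identifiers. The length and GC trend was a spline fit per library, entered as an offset.

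Alternatives used other size factors, filters, DESeq2 1.42.0, limma 3.58.1 voom, edgeR's newer dispersion option, a Y-linked covariate, a replicate block and left-out libraries. An alveolar type 2 covariate and leaving out WT replicate 3 with KO replicate 1 were added after the data were seen. Members, parts, lists and motifs were chosen with earlier results of these data known. Values per library are given for any member past the threshold, the smallest p and highest level per length of each part, the channels and receptors, and 5 paralogue pairs. Other members are given by range, and of the related genes those not past the threshold were named after their values were seen.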

Additional observations from a re-analysis of the deposited data

Results flagged for a closer look

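In 4 of the 60 groups of 4 libraries examined, 1 library lay far from the other 3, with the gap to its nearest neighbour taking up most of the group's range (Dixon's 95% criterion). For continuous, normally spread values chance alone flags about 1 group in 20. That rate does not hold for groups with libraries at 0 counts, as for Tomm20l, Timm8a2 and Timm9 here. Timm9 in WT replicate 2 stood at 5.43 CPM, where the other WT libraries were at 0 to 0.741 CPM, and without that library Timm9 was called (edgeR adjusted p = 0.0307). Timm13 in WT replicate 1 was at 38.6 CPM, below the 48.4 to 50.4 CPM of the other WT libraries. Tomm20l had 1.51 CPM in WT replicate 1 and Timm8a2 had 2.03 CPM in KO replicate 4, each with 0 counts in the other libraries of its group.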

How the results depend on the processing

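The count of members called higher was 0 in 19 of 21 alternatives. It was 1, Timm9, with edgeR's newer dispersion option, and it ranged from 0 to 1 when 1 library was left out, the 1 again being Timm9 without WT replicate 2; the cause was not tested. The count of members called lower was 0 throughout, also over the left-out libraries (0 to 0). With the replicate block, whose pairs correlated at -0.096, -0.10, -0.0051 and 0.0044 so that the numbers mark no pairing seen here, the count was 0 in either direction and Timm9 had a log2 fold change of 5.19. The KO minus WT log2 ratio of outer to inner parts ran from -0.29 to -0.060 when 1 library was left out. The inner median exceeded the outer one in every alternative except that with neither WT replicate 3 nor KO replicate 1 (0.21 against 0.29). Of 19 members followed over 21 alternatives 9 changed sign in at least 1, none of them past the threshold. Among the tested members not followed, Tomm5, Pam16, Timm10b and Timm13 also had values on both sides of 0. Tomm40 was at -0.031 with RLE factors, -0.0047 with upper quartile factors, -0.052 with totals only, -0.0046 with a stricter filter, -0.031 with DESeq2, -0.0030 with the alveolar type 2 covariate and -0.17 with the trend removed. Timm8a1 was at -0.012 with RLE factors, -0.022 with totals only, -0.015 with DESeq2, -0.031 with limma voom, -0.012 with the newer dispersion option, -0.011 with the replicate block and -0.26 with the trend removed. Grpel2 was at -0.11 with limma voom, -0.067 with the replicate block and -0.063 with the trend removed, and Tomm7 at -0.19 with the trend removed. With neither WT replicate 3 nor KO replicate 1 Dnajc15 was at 0.018 and Tomm22 at 0.14. Leaving out 1 library gave -0.092 to 0.23 for Tomm40, -0.23 to 0.34 for Timm8a1, -0.37 to 0.34 for Grpel2, -0.086 to 1.36 for Dnajc19, -0.35 to 0.035 for Timm22, -0.20 to 0.0055 for Timm29 and -0.23 to 0.035 for Tomm22. Members with few counts or a wide spread limit what these 8 libraries can show.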
